A study of Mus musculus with 6 samples.

Results

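The serine/arginine (SR) and hnRNP splicing factor genes were examined in the gastrocnemius of mice with and without a C26 tumor. Members were the genes of the deposited table whose Entrez gene ID maps to a mouse symbol that starts with Srsf and a digit, or with Hnrnp. The rule used names and no measured value, though the members were chosen with earlier results of these data known. It found 30 of the 13363 listed genes, 10 SR genes (Srsf1 to Srsf7, Srsf9, Srsf10 and Srsf11) and 20 hnRNP genes. Srsf12 and 3 sequences named Srsf3-ps, Hnrnpa1l2-ps and Hnrnpa1l2-ps2 also fit the pattern in RefSeq and were not analysed here. The data are 3 samples of C26 mice and 3 of control mice, all Balb/c. C26 cells come from a colon carcinoma of the mouse, and tumor-bearing mice lose fat and muscle. The methods of the study describe male mice bought at 6 weeks of age and acclimated for 1 week, with 500000 C26 cells injected under the skin of the right flank of the C26 mice, and control mice that bore no tumor. The sources used here do not say that each sample came from a different mouse, so p-values measure the spread between these samples.

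SR proteins carry RNA recognition motifs and a tail rich in arginine and serine. They bind exonic enhancers and help the U1 and U2 particles to define an exon. Their tails are phosphorylated by the SRPK and CLK kinases, which sets where in the cell they are and whether they act. The hnRNPs coat nascent RNA, often oppose SR proteins at splice sites, and also act in RNA export, stability and translation. Many genes of both families limit their own level by splicing in an exon that sends the mRNA to nonsense-mediated decay. In skeletal muscle, where the giant sarcomere genes are spliced differently with age and fiber type, these factors work beside muscle regulators such as MBNL, CELF, RBFOX and RBM20.

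All levels below are normalised TPM, the deposited FPKM rescaled to a common sum (TPM) and divided by a TMM factor, so that 1 FPKM became 1.44 to 1.89 normalised TPM. Log2 fold changes are C26 minus control on the log2(normalised TPM + 1) scale. A gene was called higher or lower at a Benjamini-Hochberg adjusted p under 0.05 from limma over all genes, which held for 19.4% of all genes in the upward and 14.5% in the downward direction. No read counts were used, and the FPKM were rounded to 2 decimals with a smallest value of 0.01. The number of reads behind a value is unknown.

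The tissue label was checked against 12 skeletal muscle genes. Acta1 had 18459 to 45230 normalised TPM and Ckm 24508 to 42515 over the 6 samples. The summed level of the 12 genes was 119701 to 209232 in C26 and 250538 to 273571 in control muscles. The genes did not move as a set, since 6 of the 12 had a log2 fold change above 0. Des was called higher (8.33%, against 19.4% of all genes). Mylpf, Tnnc2 and Pvalb were called lower (25%, against 14.5% of all genes). Control replicate 3 stood apart in 2 of the 5 measured immune markers, with Ptprc at 57.9 against 1.21 and 0.677 in the other controls and Cd74 at 1651 against 80.3 and 59.5. Of the myeloid markers, Csf1r was also higher there than in the other controls, Itgam was 0.953 against 0.659 and 0.203, and Adgre1 was the lowest of the controls at 0.664 against 0.749 and 0.694. Control replicate 3 also had less of all 6 adipocyte markers than the other controls (Adipoq 16.7 against 264 and 134) and more of all 4 cycling markers (Mki67 2.27 against 0.135 and 0.0846). C26 replicate 3 stood apart in the fast myosin gene Myh1, with 4838 against 530 and 435 in the other C26 muscles. Members are therefore also given without these samples. In whole muscle, fewer cells of a type and less RNA per cell cannot be told apart.

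The hnRNP genes were higher in C26 muscles as far as they were called. Of the 20, limma called 9 higher (45% against 19.4% of all genes) and 0 lower (against 14.5%), and 10 and 2 had an unadjusted p under 0.05 (25.1% and 22.0% of all genes). The 9 were Hnrnpa1, Hnrnpf, Hnrnpu, Hnrnpul1, Hnrnpul2, Hnrnpr, Hnrnph3, Hnrnpll and Hnrnpk. Of the 10 SR genes, limma called 0 higher and 1, Srsf9, lower (10% against 14.5% of all genes), with 0 and 1 at an unadjusted p under 0.05. In either direction, 10 of the 30 members were called, against 33.8% of all genes. The median log2 fold change was 0.44 over the hnRNP genes, -0.10 over the SR genes and -0.05 over all genes. Neither family had a gene past a fold change of 4 with an adjusted p under 0.05, which 3.49% of all genes passed.

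The summed level of the 20 hnRNP genes was 2116, 2039 and 1759 normalised TPM in C26 samples and 1209, 1285 and 1530 in control samples. Every C26 muscle was above every control on this scale. On the deposited FPKM the groups overlapped, with sums of 1195, 1191 and 929 in C26 and 807, 759 and 1059 in control muscles. The summed level of the 10 SR genes was 481, 548 and 616 in C26 and 559, 505 and 658 in control muscles, and the groups overlapped. For single genes on the normalised scale, C26 values lay above all control values for 9 hnRNP genes and 1 SR gene and below them for 1 hnRNP gene and 1 SR gene, where 27.0% and 26.5% of all genes did so. Counting both directions, groups did not overlap for 12 of the 30 members and for 53.5% of all genes.

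The number of hnRNP calls depended on single muscles. Without C26 replicate 1, C26 replicate 2 or control replicate 1, limma called 1, 2 and 2 hnRNP genes higher, beside 8.46%, 11.4% and 8.62% of all genes. Without C26 replicate 3, control replicate 2 or control replicate 3 it called 10, 5 and 7, beside 24.8%, 15.0% and 16.7%. The scaling mattered as well. Unscaled FPKM gave 4 hnRNP genes called higher and 1 lower (12.6% and 18.7% of all genes, median log2 fold change 0.22 against -0.14 for all genes), and with quantile normalization 5 higher and 2 lower (16.8% and 11.8% of all genes, median 0.03 against 0.02). With both replicates 3 left out, 12 hnRNP genes were called higher and 1 lower, beside 28.3% and 21.0% of all genes.

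**Figure D1:**
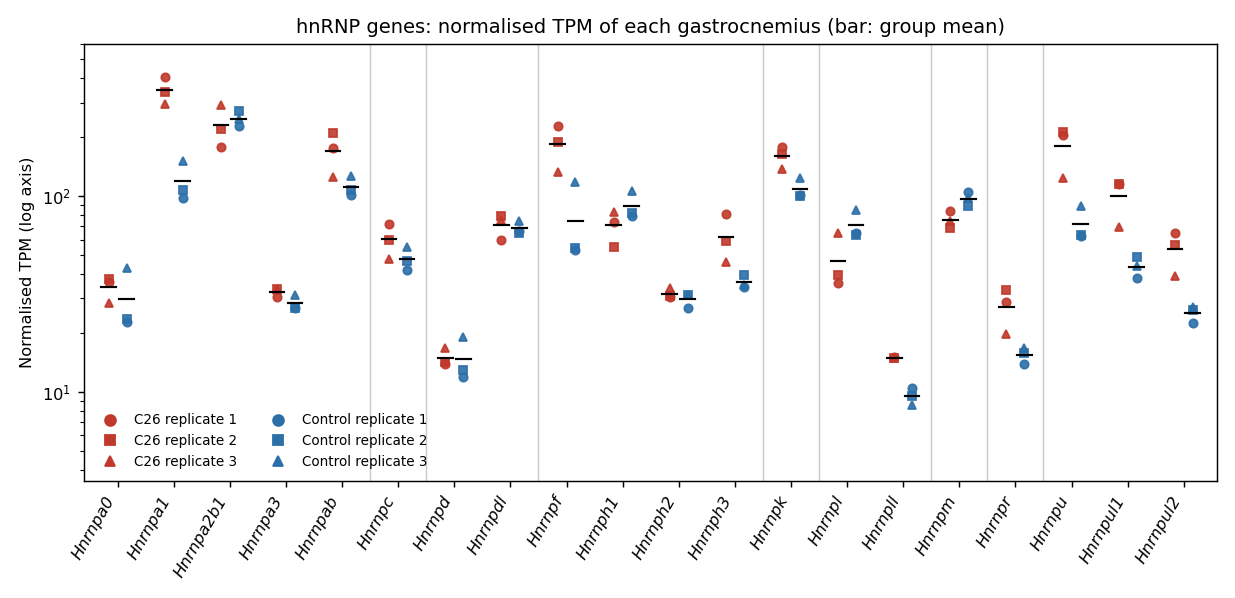
Normalised TPM (log axis) of the 20 hnRNP genes in each of the 6 muscles, with circles, squares and triangles for replicates 1, 2 and 3, red for C26, blue for control, and a black bar for each group mean. Vertical lines part the classes A/B, C, D, F/H, K, L, M, R and U, and the 3 genes of the U class have all red points above all blue points.

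All 3 genes of the U class were called higher. Hnrnpu, on chromosome 1 of GRCm38 from 178321108 to 178337797, codes for a protein also called scaffold attachment factor A, which binds chromatin-associated RNA. Its normalised TPM was 205, 214 and 124 in C26 samples and 62.3, 63.2 and 89.6 in control samples, so the groups did not overlap and C26 replicate 3 was nearest to the controls. In limma, this gave a log2 difference of 1.30 (SE 0.26, adjusted p = 0.0137), a 2.47-fold difference. Hnrnpul1, a paralog linked to DNA damage responses and RNA export, had 116, 116 and 69.3 in C26 and 38.1, 48.7 and 43.7 in control muscles (log2 fold change 1.16, SE 0.24, adjusted p = 0.0142 from limma). Hnrnpul2, the other paralog, had 64.8, 56.6 and 39.0 in C26 and 22.6, 26.2 and 27.2 in control muscles (log2 fold change 1.02, SE 0.21, adjusted p = 0.0149 from limma). In all of these genes C26 replicate 3 was the lowest C26 muscle and still above the highest control. With each muscle left out, the log2 fold change stayed between 1.17 and 1.64 for Hnrnpu, 1.03 and 1.49 for Hnrnpul1 and 0.87 and 1.31 for Hnrnpul2, and they were called in 4, 3 and 3 of the 6 fits. Under the 9 other settings they were called in 8, 9 and 9. An exon of Hnrnpu overlaps Cox20 on the opposite strand. None of the 50-base stretches of the Hnrnpu coding transcript occurs in the transcripts of another gene.

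In the A/B class, 1 of 5 genes, Hnrnpa1, was called. Hnrnpa1 codes for the protein that silences exons through RNA elements of the UAGGG kind, moves between nucleus and cytoplasm and also acts in translation. Its normalised TPM was 408, 340 and 296 in C26 samples and 97.5, 108 and 152 in control samples, and the lowest C26 value was well above the highest control. In limma, this gave a log2 difference of 1.55 (SE 0.22, adjusted p = 0.00567), a 2.94-fold difference and the largest of all 30 members. It was called in 6 of 6 fits with a muscle left out, with log2 fold changes of 1.43 to 1.75, and under 9 of 9 other settings. Hnrnpa2b1, its close paralog, had 178, 222 and 293 in C26 and 228, 271 and 247 in control muscles, so the groups overlapped (log2 fold change -0.13, SE 0.21, adjusted p = 0.634 from limma). Hnrnpa1 thus ranked first of the hnRNP genes by its mean in C26 and second in control muscles, where Hnrnpa2b1 ranked first. Of the 50-base stretches of Hnrnpa1 coding transcripts, 46.7% also occur in transcripts of other genes in GENCODE, most of them in the predicted gene Gm10052, so reads could have been split with such copies. The share was 1.60% for Hnrnpa2b1.

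The other A/B genes did not pass the test. Hnrnpab, known for binding AU-rich RNA, had 176, 210 and 126 normalised TPM in C26 and 102, 108 and 126 in control muscles, with C26 replicate 3 just under control replicate 3 (log2 fold change 0.58, SE 0.22, adjusted p = 0.0827 from limma). It passed without C26 replicate 3 (adjusted p = 0.0131 from limma). Its exons overlap Phykpl on the opposite strand, and 23.9% of its 50-base stretches also occur in other transcripts. Hnrnpa3 had 30.4 to 33.4 in C26 and 26.8 to 31.4 in control samples (log2 fold change 0.18), and Hnrnpa0, an intronless gene, had a log2 fold change of 0.25, with overlapping groups. Hnrnpa0 had 42.9 in control replicate 3 and 22.8 and 23.5 in the other controls.

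Within the F/H class, whose proteins bind runs of G, 2 of 4 genes rose. Hnrnpf had 229, 189 and 134 normalised TPM in C26 samples and 52.8, 54.5 and 118 in control samples. Control replicate 3 came close to C26 replicate 3 without reaching it, but was above it on the deposited FPKM (81.45 against 70.63). In limma, this gave a log2 difference of 1.35 (SE 0.36, adjusted p = 0.0309), and it was called in 2 of the 6 fits with a muscle left out, with values of 1.15 to 1.72. Of the 9 other settings 6 kept the call, which was lost among others on unscaled FPKM (adjusted p = 0.0792 from limma) and with quantile normalization (adjusted p = 0.109 from limma). Of the 50-base stretches of Hnrnpf, 61.9% also occur in other transcripts. Hnrnph3, a shorter relative, had 81.5, 58.8 and 46.0 in C26 and 34.4, 39.4 and 35.0 in control muscles (log2 fold change 0.72, SE 0.22, adjusted p = 0.0472 from limma), and was called in 1 of those 6 fits and in 4 of the 9 other settings (adjusted p up to 0.253 from limma). Hnrnph1, a G-run binder like Hnrnpf, had 55.2 to 83.5 in C26 and 79.3 to 107 in control samples (log2 fold change -0.34). Hnrnph2, its X-linked paralog, had 30.4 to 34.1 and 26.9 to 31.3 (log2 fold change 0.09), and in both genes the groups overlapped.

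Of the K, L, M and R genes, Hnrnpk, Hnrnpll and Hnrnpr rose. Hnrnpk codes for a KH-domain protein that binds runs of C in RNA and DNA. It had 177, 165 and 138 normalised TPM in C26 and 102, 101 and 124 in control muscles (log2 fold change 0.56, SE 0.16, adjusted p = 0.0402 from limma). It was called in 2 of the 6 fits with a muscle left out, and in 4 of the 9 other settings, and with quantile normalization its log2 fold change was 0.16 (adjusted p = 0.519 from limma). Hnrnpr, a relative of Syncrip, had 28.7, 33.3 and 19.6 in C26 and 13.8, 15.7 and 16.8 in control muscles (log2 fold change 0.75, SE 0.22, adjusted p = 0.0385 from limma), and was called in 1 of those fits. It was called in 4 of the 9 other settings. The call was lost with TPM without TMM, unscaled FPKM and quantile normalization (adjusted p from limma of 0.0670, 0.134 and 0.0971). It was also lost with the replicate number as a block and with the length and GC correction (adjusted p from limma of 0.0824 and 0.0711). On the normalised scale, both Hnrnpk and Hnrnpr had every C26 muscle above every control. On the deposited FPKM, C26 replicate 3 was under control replicate 3 in both (73.01 against 85.57 for Hnrnpk, 10.37 against 11.66 for Hnrnpr). Of the 50-base stretches of Hnrnpk, 25.6% also occur in other transcripts.

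Hnrnpll, known as the switch of CD45 splicing in lymphocytes, was the least abundant hnRNP gene and the one with the smallest SE. Its normalised TPM was 15.1, 14.9 and 14.9 in C26 and 10.5, 9.48 and 8.60 in control muscles (log2 fold change 0.60, SE 0.13, adjusted p = 0.0167 from limma). It was called in 4 of the 6 fits with a muscle left out (adjusted p up to 0.0670 from limma) and in 7 of the 9 other settings. The call was lost on unscaled FPKM and with the replicate number as a block (adjusted p = 0.0571 and 0.0557 from limma). The lowest value was that of control replicate 3, the sample with the high Ptprc, which is the gene of CD45. Hnrnpl, its paralog, had 36.1, 39.6 and 65.0 in C26 and 64.8, 63.0 and 85.0 in control muscles. C26 replicate 3 lay among the controls, and the log2 fold change of -0.62 did not pass (SE 0.26, adjusted p = 0.104 from limma) but did without C26 replicate 3 (-0.80, adjusted p = 0.0242 from limma) and with quantile normalization (-1.01, adjusted p = 0.0420 from limma). Hnrnpm, which acts with RBFOX proteins, had 84.3, 69.1 and 74.6 in C26 and 104, 88.6 and 97.4 in control muscles. All of its C26 values were below the controls (log2 fold change -0.35, SE 0.14, adjusted p = 0.105 from limma), and it passed with FPKM as deposited and with quantile normalization. Hnrnpc, which binds runs of U and measures RNA length, had 48.0 to 72.4 in C26 and 41.8 to 54.7 in control samples (log2 fold change 0.32). Hnrnpd, also called AUF1, a binder of AU-rich RNA, had 13.8 to 16.8 and 11.9 to 19.1, and its relative Hnrnpdl had 59.6 to 78.9 and 65.1 to 74.6, each with a log2 fold change of 0.05. These 3 genes overlapped between the groups.

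**Figure D2:**
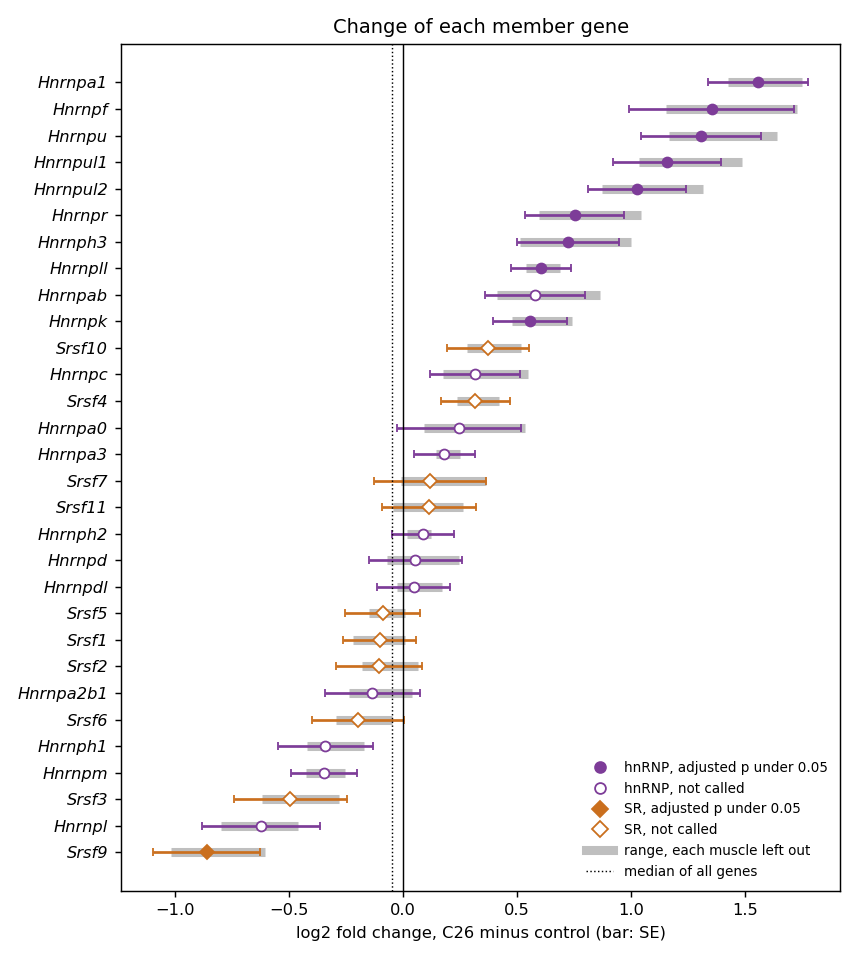
Log2 fold change (C26 minus control) of the 30 members with its SE, circles for hnRNP and diamonds for SR genes, filled where the adjusted p was under 0.05. Grey bars span the values with each muscle left out, the dotted line is the median of all genes, and the filled symbols on the right are the 9 hnRNP genes while the filled diamond on the left is Srsf9.

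Ratios of paralog FPKM within a muscle are unchanged by a single scaling factor per sample, as TPM and TMM apply, but not by quantile normalization. The pairs were chosen after the values had been seen, so they are described without a test. The ratio of Hnrnpa1 to Hnrnpa2b1 FPKM was 2.30, 1.54 and 1.01 in C26 samples and 0.427, 0.397 and 0.616 in control samples. Hnrnpf to Hnrnph1 gave 3.10, 3.43 and 1.60 in C26 and 0.666, 0.661 and 1.10 in control muscles. Hnrnpll to Hnrnpl gave 0.418, 0.377 and 0.229 in C26 and 0.162, 0.150 and 0.101 in control muscles. All 3 ratios were higher in every C26 muscle than in every control, and C26 replicate 3 was the lowest C26 muscle in each.

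**Figure D3:**
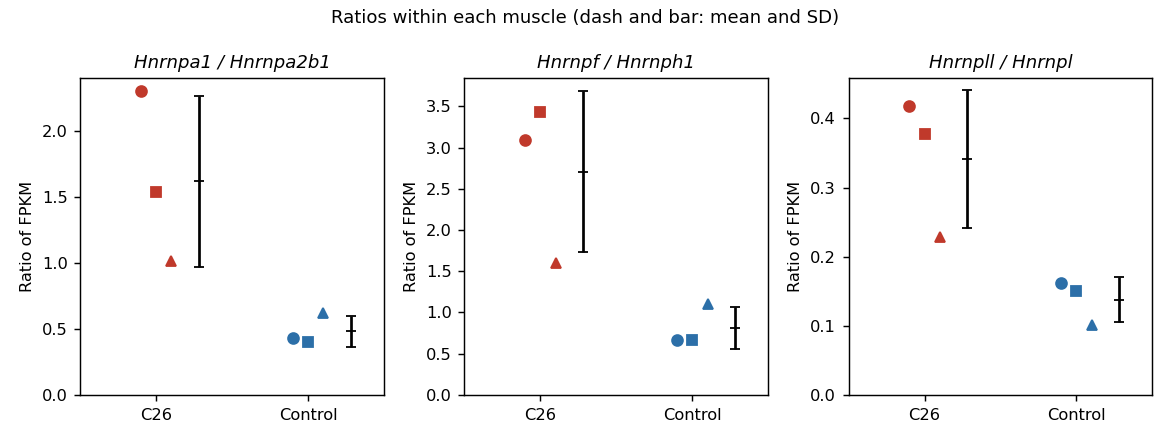
Ratio of the FPKM of paralogous hnRNP genes in each muscle (vertical axes, linear from 0), with circles, squares and triangles for replicates 1, 2 and 3 and the mean and SD of each group in black. The C26 points lie above the control points in all 3 panels.

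Among the SR genes, Srsf9 fell. SRSF9, also known as SRp30c, is a small member of the family with a short serine/arginine tail. Srsf9 lies on chromosome 5 of GRCm38 from 115327177 to 115333080. It had 12.5, 12.7 and 13.2 normalised TPM in C26 samples and 20.8, 19.2 and 34.7 in control samples. The C26 values lay close together and below every control, and control replicate 3 was the highest. In limma, this gave a log2 difference of -0.86 (SE 0.23, adjusted p = 0.0322). Without control replicate 3 it was -0.61 and still called (adjusted p = 0.0237 from limma). Without C26 replicate 1, 2 or 3 or control replicate 1 it was not called, at adjusted p = 0.103, 0.0893, 0.0766 and 0.0674 from limma. Of the 9 other settings 8 kept the call, which was lost with the replicate number as a block (adjusted p = 0.0537 from limma). None of the 50-base stretches of the Srsf9 coding transcripts occurs in transcripts of another gene.

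The abundant SR genes overlapped between the groups. Srsf5, the highest, had 177, 194 and 241 normalised TPM in C26 and 225, 198 and 224 in control muscles (log2 fold change -0.09, SE 0.16, adjusted p = 0.690 from limma). Srsf2, the factor also called SC35 that marks nuclear speckles, had 73.6, 104 and 108 in C26 and 99.6, 93.5 and 110 in control muscles (log2 fold change -0.10, SE 0.19, adjusted p = 0.681 from limma). Of the 50-base stretches of Srsf2, 31.8% also occur in other transcripts, and its exons overlap Mettl23 and Mfsd11 on the opposite strand. For both genes C26 replicate 1 was the lowest of the 6 muscles. C26 replicate 1 was the lowest C26 muscle for 8 of the 10 SR genes, and control replicate 3 the highest control for 9.

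The remaining SR genes lay between log2 fold changes of -0.49 (Srsf3, SE 0.25) and 0.37 (Srsf10, SE 0.18), with adjusted p from limma of at least 0.146. Srsf3, a factor that also links splicing to mRNA export, had 20.9, 26.5 and 32.6 in C26 and 32.9, 31.3 and 50.4 in control muscles. Srsf6 had 32.6 to 48.4 in C26 and 40.6 to 55.5 in control samples, and Srsf7, which also takes part in mRNA export, 33.3 to 44.6 and 30.4 to 51.4. Srsf10, which represses splicing when it is dephosphorylated, had 29.9 to 36.7 and 21.7 to 30.6, and Srsf11 45.3 to 60.7 and 39.5 to 61.1. In these 5 genes the groups overlapped. Srsf4 alone of the remaining genes had all C26 values above the controls, with 39.5, 42.5 and 45.2 against 32.8, 30.1 and 39.2 (log2 fold change 0.32, SE 0.15, adjusted p = 0.146 from limma), and 65.3% of its 50-base stretches also occur in Gm12992 on the opposite strand. Without both replicates 3, Srsf4 and Srsf10 were called higher. Srsf1, the founding member of the family, was listed at 0.32 to 0.75 FPKM, at the 14.5th percentile of all genes, whereas the other 29 members were all above the median gene. The deposited table has 1 value per gene and sample, so the levels do not show which isoforms, including those that carry a decay exon, were made.

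**Figure D4:**
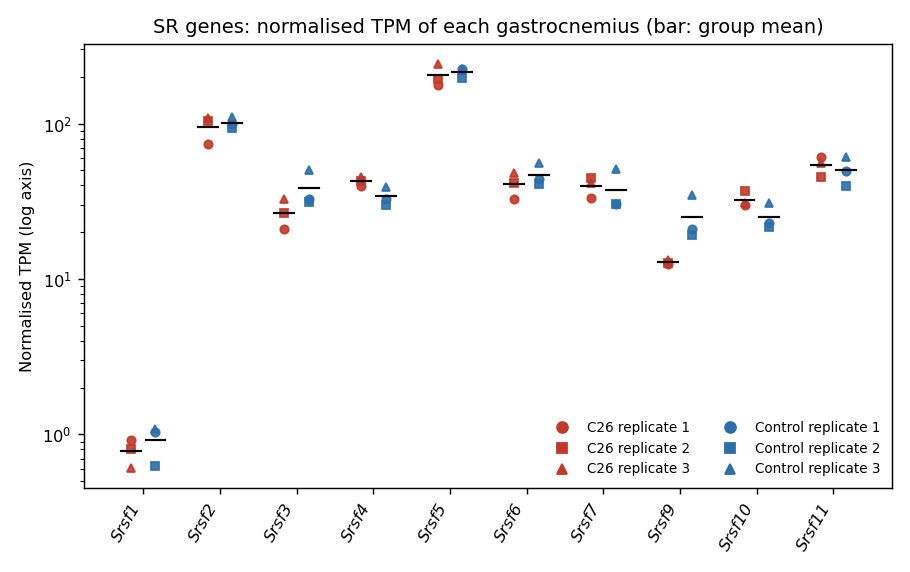
Normalised TPM (log axis) of the 10 SR genes in each of the 6 muscles, with circles, squares and triangles for replicates 1, 2 and 3, red for C26, blue for control, and a black bar for each group mean. Red and blue points overlap except for Srsf4 and Srsf9, and Srsf1 lies near 1.

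The 250 bases before the start site were read from the RefSeq promoter table used here (GRCm38.p6), which matched 28 of the 30 members, all but Hnrnpll and Hnrnpul2. Hnrnpa1, Hnrnpu and Hnrnpul1 are shown as genes that rose and Srsf9 as the one that fell, each read toward the gene, with CCAAT (or ATTGG, the same letters on the other strand) in capitals. The windows are chr15:103240147-103240396 (plus strand) for Hnrnpa1, chr1:178337816-178338065 (minus) for Hnrnpu, chr7:25754760-25755009 (minus) for Hnrnpul1 and chr5:115326927-115327176 (plus) for Srsf9. The 50 bases after the window were found near the start of a GENCODE coding transcript for Srsf9 and not for Hnrnpa1, Hnrnpu or Hnrnpul1. In GENCODE, Hnrnpa1 starts at 103240432, past the end of its window.
Hnrnpa1: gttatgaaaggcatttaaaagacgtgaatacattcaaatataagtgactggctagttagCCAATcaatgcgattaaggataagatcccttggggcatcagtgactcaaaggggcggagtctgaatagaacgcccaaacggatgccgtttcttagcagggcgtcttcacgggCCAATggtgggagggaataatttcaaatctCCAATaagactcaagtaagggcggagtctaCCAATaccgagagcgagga
Hnrnpu: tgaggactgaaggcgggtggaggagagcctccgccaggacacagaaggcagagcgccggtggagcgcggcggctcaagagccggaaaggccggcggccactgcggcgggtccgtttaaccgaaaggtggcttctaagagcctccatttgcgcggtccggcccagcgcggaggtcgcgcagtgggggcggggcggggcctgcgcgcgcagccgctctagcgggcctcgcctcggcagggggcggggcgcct
Hnrnpul1: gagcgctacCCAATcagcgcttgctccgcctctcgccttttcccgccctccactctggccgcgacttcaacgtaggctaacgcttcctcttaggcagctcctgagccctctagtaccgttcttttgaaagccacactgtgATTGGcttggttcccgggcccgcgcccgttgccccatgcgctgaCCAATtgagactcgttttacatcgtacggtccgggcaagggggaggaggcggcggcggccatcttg
Srsf9: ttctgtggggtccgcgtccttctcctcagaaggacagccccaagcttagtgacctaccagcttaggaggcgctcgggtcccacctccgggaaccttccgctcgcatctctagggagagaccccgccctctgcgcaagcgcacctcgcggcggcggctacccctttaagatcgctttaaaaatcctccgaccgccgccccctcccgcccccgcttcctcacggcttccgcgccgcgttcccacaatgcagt
CCAAT occurred 4 times before Hnrnpa1 and 3 times before Hnrnpul1, and not before Hnrnpu or Srsf9.

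Over all members, CCAAT was found on either strand before 16 of 28 genes, against 37.5% of the 27025 genes with such a window. These 27025 genes were not limited to the genes listed in the muscle data. A gene with several windows counted if any of them held the motif. The windows of the members were rich in CG. Taking the window with the most CG of each gene, the median was 27 CG dinucleotides against 6 for the 27025 genes. CCGGAAG, an ETS motif, was found before 6 members (7.83% of the 27025 genes), CACGTG before 3 (6.86%) and TTCNNNGAA, a STAT motif, before 2 (8.13%). GTAAACA, a FoxO motif, was found before 1, Srsf6 (3.54%), the NRF1 motif before 1, Srsf11 (0.877%), and TGACGTCA before 0 (1.77%). Such matches are letters in a window, and no binding was measured.

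The other genes of the pathway were read from 6 lists with 108 genes, all of them in the table. Of these, limma called 27 higher and 5 lower (25% and 4.63%, against 19.4% and 14.5% of all genes), with a median log2 fold change of 0.24. The split was 15 and 14 with quantile normalization, beside 16.8% and 11.8% of all genes, and 14 and 11 on unscaled FPKM, beside 12.6% and 18.7%. Leaving out C26 replicate 1, control replicate 1 or C26 replicate 2 gave 8, 9 and 14 higher and 3, 1 and 4 lower, beside 8.46%, 8.62% and 11.4% of all genes higher and 5.01%, 5.42% and 7.08% lower. Leaving out C26 replicate 3 gave 36 and 9, beside 24.8% and 16.2%.

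Of 10 genes of SR kinases and SR protein import, 4 rose (40%, against 19.4% of all genes) and 0 fell, with 6 and 1 at an unadjusted p under 0.05. Srpk1, a kinase that loads phosphate onto SR proteins in the cytoplasm, had 12.8, 17.4 and 3.28 normalised TPM in C26 and 0.599, 0.795 and 1.10 in control muscles (log2 fold change 2.50, SE 0.52, adjusted p = 0.0152 from limma). It was low in all controls and varied most between the C26 muscles. Srpk3, more abundant in the controls, had 13.3, 28.5 and 22.3 in C26 and 36.6, 34.4 and 37.0 in control muscles. All of its C26 values were below the controls, but it was not called (log2 fold change -0.79, SE 0.27, adjusted p = 0.0637 from limma). The nuclear kinases Clk2 and Clk4 rose by 0.93 and 0.83 and Dyrk1a by 0.82 on the log2 scale, with adjusted p from limma of 0.0250, 0.0264 and 0.0167.

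Of 17 genes listed as splicing regulators in muscle, 3 rose and 2 fell (17.6% and 11.8%, against 19.4% and 14.5% of all genes). Rbm20, which represses exons of titin, had 59.3, 50.4 and 39.1 normalised TPM in C26 and 11.3, 12.5 and 6.51 in control muscles (log2 fold change 2.21, SE 0.27, adjusted p = 0.00411 from limma). Qk (log2 fold change 1.29) and Elavl1 (0.53) rose, with limma adjusted p of 0.00973 and 0.0386. Rbfox2 fell, with 5.26, 6.63 and 8.97 in C26 and 21.0, 20.0 and 13.5 in control muscles (log2 fold change -1.27, SE 0.24, adjusted p = 0.0118 from limma). Tia1 also fell, by 0.63 on that scale (adjusted p = 0.0337 from limma). For Rbfox2, control replicate 3 was the lowest control.

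Of 19 SR-like and SR-related genes, limma called 3 higher, Luc7l (log2 fold change 1.12), Srrm1 (0.97) and U2af1 (0.58), and 0 lower (15.8% higher, against 19.4% of all genes), with 5 and 2 at an unadjusted p under 0.05. Luc7l and U2af1 code for proteins that help to recognise the splice site at either end of the intron, and Srrm1 for a coactivator that bridges SR proteins. Of 14 hnRNP-type proteins with other symbols, 2 were called higher, the cold-inducible Cirbp (1.27) and the nuclear matrix protein gene Matr3 (1.19), and 0 lower (14.3% higher), with 4 and 0 at an unadjusted p under 0.05. Of 10 genes of nonsense-mediated decay, 4 rose, Smg5 (1.27), the kinase gene Smg1 (1.13), Smg8 (0.94) and Smg6 (0.49), and 0 fell (40% higher), with 4 and 0 at an unadjusted p under 0.05.

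Of 38 core snRNP protein genes, 11 rose and 3 fell (28.9% and 7.89%, against 19.4% and 14.5% of all genes). Prpf6, which bridges the U5 particle to U4/U6, had 155, 120 and 75.5 normalised TPM in C26 and 26.1, 33.3 and 27.2 in control muscles (log2 fold change 1.93, SE 0.28, adjusted p = 0.00595 from limma). Snrnp200, the helicase that unwinds U4 from U6, had 73.2, 66.1 and 32.9 in C26 and 12.5, 16.5 and 14.8 in control muscles (log2 fold change 1.84, SE 0.31, adjusted p = 0.00874 from limma). Sf3b1, which sits at the branch point, rose (log2 fold change 1.24, limma adjusted p 0.00849). Snrpf, a protein of the Sm ring, fell from 41.9, 46.0 and 61.5 in control to 12.5, 16.2 and 19.1 in C26 muscles (log2 fold change -1.59, SE 0.22, adjusted p = 0.00533 from limma). A split of the list made after the values had been seen put 6 higher calls among the 10 proteins of the U4/U6.U5 particle, 5 among the 14 of U1 and U2, and 3 lower calls, Snrpf, Lsm6 and Lsm7, among the 14 of the Sm and Lsm rings.

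**Figure D5:**
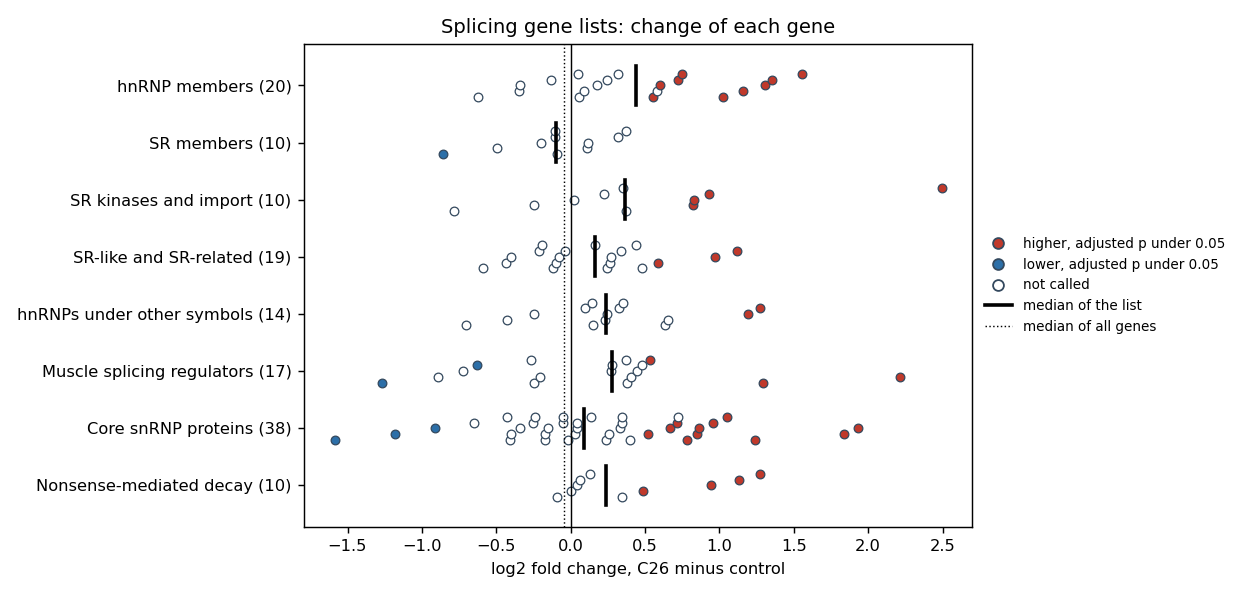
Log2 fold change (C26 minus control) of each gene of the hnRNP and SR families and of the 6 lists of other splicing genes, with red for genes called higher, blue for genes called lower and white for genes not called, spread vertically for legibility. Thick bars are list medians, which lie between -0.10 for the SR genes and 0.44 for the hnRNP genes, and the dotted line is the median of all genes.

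Markers of other cells differed between the groups for some cell types. Adipocyte markers were lower in C26 muscles for 5 of 6 genes, with a summed level of 454 to 638 normalised TPM against 688 (control replicate 3) to 5300, and fibroblast markers for 3 of 5, with 268 to 359 against 455 to 560. Of the 5 endothelial markers 2, of the 4 Schwann cell markers 1 and of the 4 cycling cell markers 1 (Mcm2) were lower. Over all genes, 14.5% were called lower and 19.4% higher. Pecam1 of the endothelial markers (log2 fold change 0.03) and Pcna of the cycling markers (0.71) lay above 0, with neither called. The 3 erythroid markers were higher, with 628 to 1296 against 278 to 434. Immune markers summed to 12.7 to 35.3 in C26 and 66.4 to 1723 in control muscles with 0 of 5 called. At an unadjusted p under 0.05, 2 were lower (22.0% of all genes). Cd74 made up 1651 of the 1723 in control replicate 3, and Itgam and Adgre1 had log2 fold changes of 0.01 and -0.08. The 3 carcinoma epithelium markers stayed at a sum of at most 2.41 in any muscle, with 0 called at either threshold. The table lists no gene at 0, and the immune markers Cd79a and Cd3e, the epithelial marker Epcam and the cycling markers Top2a and Ccnb1 were not analysed here. The part of these cells in the hnRNP and SR values was not tested. Without control replicate 3 the median log2 fold change of the hnRNP genes was 0.54 and that of the SR genes -0.04.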

How the data were processed

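RNA sequencing of 6 gastrocnemius samples, 3 C26 and 3 control, was analysed. Per the methods, the authors depleted rRNA, made cDNA with random primers, removed poor reads, aligned single-end reads of 50 bases with bowtie2 to GRCm38.p5 and obtained FPKM by RSEM. The submitters' processing notes name mm9, HISAT2 2.0.4, Bowtie2 2.2.5 and RSEM 1.2.12, and which build underlies the deposited FPKM is not settled. The file holds no coordinates. Strandedness is not given in the sources used here.

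Entrez gene IDs were matched to RefSeq symbols for 13327 genes and not for 36. FPKM were rescaled to TPM and divided by TMM factors (unweighted, with a trim of 30% on ratios and 5% on levels). Values were log2-transformed with a pseudocount of 1, and limma 3.58.1 under R 4.3.3 compared the groups over all 13363 genes with no filter, so all 30 members were tested. The code was tested on simulated data. Annotation came from GENCODE M21 (GRCm38), and sequences from RefSeq (GRCm38.p6). The 50-base stretches of a member came from its protein-coding transcripts, while exon overlaps used all of its transcripts. A stretch of 50 bases was counted as shared if it occurred on either strand in a GENCODE transcript of another gene.

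The members and the gene lists were chosen with earlier results of these data known. Per-sample values were to be given for the called members and the 2 most abundant of each family. Up to 4 called genes of each other list with the largest change were to be named, some of them here with fold changes only. Further genes were named after their values were seen. The alternatives were quantile normalization, unscaled FPKM, TPM with no TMM factor, an intensity trend, a pseudocount of 0.1, a filter at a mean TPM of 1, the replicate number as a block and each muscle left out. A correction for transcript length and GC content and the fit without both replicates 3 were chosen after seeing the data. Figures were drawn with matplotlib 3.10.9.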

Additional observations from a re-analysis of the deposited data

How the results depend on the processing

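Depth is unknown, so counting error could not be separated from the spread between the 3 samples of a group, and the values do not show splice isoforms. With a pseudocount of 0.1, the filter on a mean TPM of 1, TPM without TMM, the intensity trend and the correction for transcript length and GC, the hnRNP genes called higher numbered 6 to 9 and the SR gene called lower stayed 1, beside 17.6% to 22.6% of all genes higher and 13.6% to 16.9% lower. FPKM as deposited gave 4 hnRNP genes higher and 1 lower, 14 and 11 genes of the other splicing lists and 1678 and 2504 of all genes, so that over all genes lower calls outnumbered higher ones. Quantile normalization gave 5 and 2 hnRNP genes and 15 and 14 genes of the lists. Leaving out both replicates 3 gave 2 SR genes higher, 12 and 1 hnRNP genes, 47 and 9 genes of the lists and 3780 and 2805 of all genes. The causes were not tested.

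With the replicate number as a block, limma called 3 hnRNP genes higher, 0 SR genes lower, 16 and 3 genes of the lists and 1844 and 1236 of all genes (13.8% and 9.25%). The numbers do not pair the samples by any label, and the deviations of same-numbered muscles correlated at -0.04, -0.08 and -0.11 across genes, so not every muscle went with its own number. With each muscle left out, the counts ranged from 0 to 0 SR genes higher and 0 to 1 lower, 1 to 10 hnRNP genes higher and 0 to 1 lower, 8 to 36 and 1 to 9 genes of the lists, and 1131 to 3311 and 669 to 2160 of all genes.

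No called member changed direction in any fit. Among members not called, the log2 fold change turned with FPKM as deposited for Hnrnpdl (-0.16), Hnrnpd (-0.15), Hnrnpa3 (-0.029), Srsf11 (-0.10), Hnrnph2 (-0.12) and Srsf7 (-0.094). With quantile normalization it turned for Srsf1 (0.29), Hnrnpdl (-0.36), Hnrnpd (-0.11), Hnrnpa3 (-0.14), Srsf11 (-0.29), Hnrnph2 (-0.23), Srsf7 (-0.25), Hnrnpa0 (-0.095), Srsf4 (-0.057) and Hnrnpc (-0.095), and with the length and GC correction for Hnrnpd (-0.045). With 1 muscle or both replicates 3 left out it turned for Srsf5 (-0.15 to 0.0074), Hnrnpa2b1 (-0.24 to 0.038), Srsf2 (-0.18 to 0.067), Hnrnpdl (-0.028 to 0.17), Srsf1 (-0.22 to 0.080), Hnrnpd (-0.069 to 0.26), Srsf7 (-0.0077 to 0.43) and Srsf11 (-0.044 to 0.33).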
